A study of Mus musculus with 12 samples.

Results

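The difference in expression between 2 sorted cell populations of the embryonic mouse cerebral cortex was compared between E13.5 and E15.5, counted in embryonic days. The 8 bulk RNA-seq libraries used, of 12 in the series, are the Ebf2-EGFP+ and Ebf2-EGFP- cells at both stages, with 2 libraries in each of the 4 groups, and they were taken by stage and population label alone. All cells came from embryos of the mouse strain Tg(Ebf2-EGFP)FB58Gsat, in which EGFP is made under the regulatory sequences of *Ebf2*, and no group carried another allele or received a treatment. Cortices of EGFP-positive embryos from several mothers were pooled for each experiment and the cells were separated by fluorescence-activated sorting, so a replicate is a pool and not 1 animal, and the p-values below measure the spread between such pools. The quantity tested is the interaction, which is the stage change in Ebf2-EGFP+ cells minus the stage change in Ebf2-EGFP- cells on the log2(FPKM + 1) scale, where FPKM is the number of fragments scaled to transcript length and to the mapped fragments of the library. It is above 0 where a gene rose more, or fell less, in Ebf2-EGFP+ cells, and it was fitted for the 4859 coding genes and 200 lncRNA transcripts of the deposited tables.

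The first neurons of the cortex settle in the preplate, a layer that is later split by the arriving cortical plate into the marginal zone above and the subplate below. Cajal-Retzius neurons come to lie in the marginal zone, where they secrete reelin, the glycoprotein that guides the layering of later neurons, and they are born outside the cortical neuroepithelium proper, in the cortical hem, the septum and the pallial-subpallial boundary. Meanwhile radial glia keep dividing in the ventricular zone and, through intermediate progenitors, supply first the deep and then the upper layers of the cortical plate. In this strain EGFP marks the preplate early and Cajal-Retzius neurons later, and the Ebf2-EGFP- cells hold progenitors and, with age, more cortical plate neurons, so in bulk samples fewer cells of a type and less RNA per cell cannot be told apart.

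The deposited tables hold only features that the authors had called different between the populations at 1 or more stages of these same libraries, so the share of changing genes below describes that list and not the transcriptome. The depth of each library is unknown, since FPKM carry no counts and the paper gives only an average over samples. Replicates correlated at 0.981 to 0.991 across the coding genes, which are not independent replicates, within the 4 groups. The 10 Cajal-Retzius genes in the table averaged 3.40 to 5.31 on the log2 scale in the 4 Ebf2-EGFP+ libraries and 0.92 to 1.28 in the 4 Ebf2-EGFP- libraries. These genes were selected on the same libraries and include *Ebf2*, so their separation cannot check the population labels. *Ebf2* itself measured 6.66 and 4.32 FPKM at E13.5, then 2.83 and 5.14 at E15.5, for Ebf2-EGFP+ cells, against 1.54 and 1.05, then 0.103 and 0.0644, in Ebf2-EGFP- cells. In both populations replicate 1 stood above replicate 2 in mitosis genes at E13.5: the mean level of 13 mitosis genes was 3.19 and 2.56 on the log2 scale in Ebf2-EGFP+ cells and 5.32 and 4.73 in Ebf2-EGFP- cells. At E15.5 it was 1.06 and 1.15 in Ebf2-EGFP+ cells and 3.59 and 2.79 in Ebf2-EGFP- cells. The part of these gaps in the results was not tested.

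The population difference changed between E13.5 and E15.5 in 610 of 4859 coding genes (12.6%, limma adjusted p under 0.05), of which 444 lay above 0 (9.14%) and 166 below 0 (3.42%). Each was then sorted by which population had moved. Of the 444 genes above 0, 161 rose in Ebf2-EGFP+ cells with no call in the other population, 198 fell in Ebf2-EGFP- cells with no call in Ebf2-EGFP+ cells, 47 did both, 37 moved the same way in both populations and 1 had neither change called. Of the 166 below 0, 47 fell in Ebf2-EGFP+ cells only, 66 rose in Ebf2-EGFP- cells only, 16 did both, 34 moved the same way in both and 3 had neither change called. Over all 4859 genes, 24.6% rose and 17.3% fell in Ebf2-EGFP+ cells and 28.8% rose and 34.8% fell in Ebf2-EGFP- cells. The excess of falls in Ebf2-EGFP- cells, 1691 against 1398 rises, was not seen after median-of-ratios scaling, which sets each library by its median gene (1538 and 1558), or without replicate 2 of E15.5 Ebf2-EGFP- (1118 and 1145), and was 984 against 978 without replicate 1 of E13.5 Ebf2-EGFP-. Median-of-ratios scaling draws the median change toward 0 by design (-0.10 to -0.03 in Ebf2-EGFP- cells), so its balance cannot decide whether the excess is real. A change called in 1 population and not in the other is no test of their difference, which is what the interaction itself tests. In 97 of the 198 genes that fell in Ebf2-EGFP- cells only, the Ebf2-EGFP+ mean was already under 1 FPKM at E13.5, which left little room for a fall there.

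**Figure D1:**
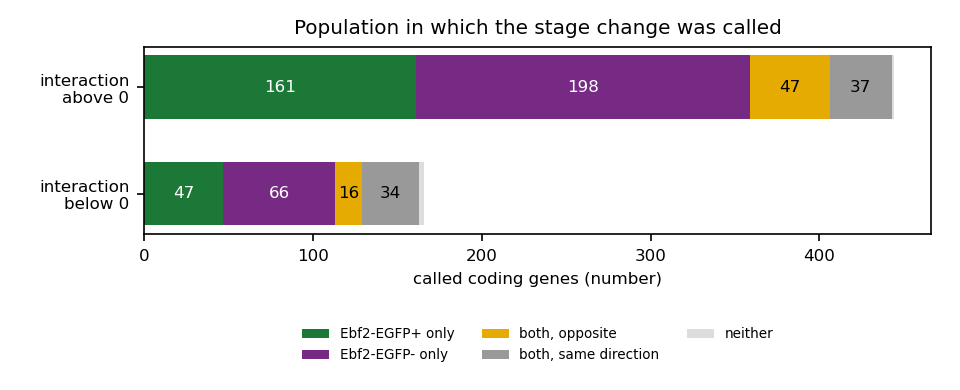
Number of coding genes (x axis) called for the interaction above 0 and below 0, split by the population in which the change from E13.5 to E15.5 was itself called. The segments hold 161, 198, 47 and 37 genes above 0 and 47, 66, 16 and 34 below 0, with 1 and 3 genes called in neither population at the right ends.

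In terms of the difference itself, 38 genes above 0 went from lower to higher in Ebf2-EGFP+ cells, 78 from no called difference to higher, 155 from lower to no called difference, 66 were higher at both stages and 107 lower at both. Of those below 0, 15 went from higher to lower, 50 from no called difference to lower, 54 from higher to no called difference, 22 were higher at both stages and 25 lower at both. The count rested on the libraries used: with same-numbered libraries of a stage treated as pairs (replicate block), 1775 genes were called, all 610 among them, 22.9% of the coding genes above 0 and 13.6% below, which are the shares to set beside the block counts of gene lists that follow. The 8 libraries alone, without the E11.5 groups that help to estimate the spread, gave 138, and leaving out single libraries gave 125 to 1135. The fewest calls came without replicate 1 of the E13.5 Ebf2-EGFP- cells and the most without its replicate 2.

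**Figure D2:**
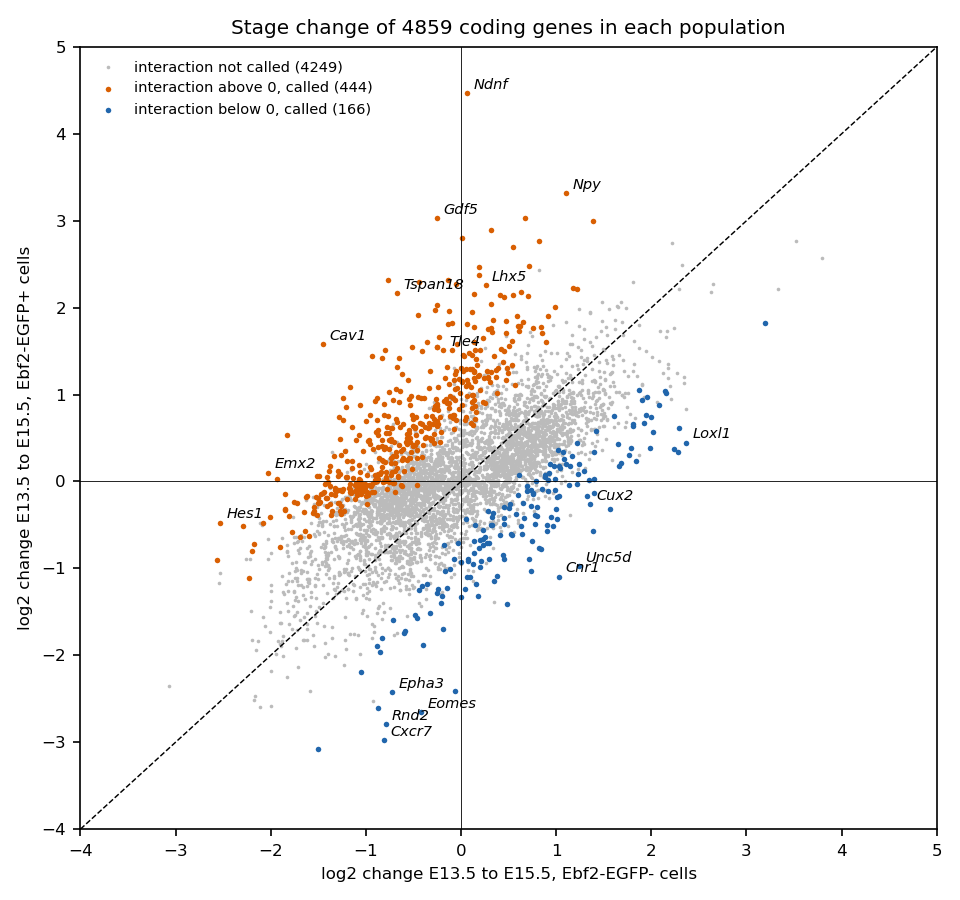
Log2 change from E13.5 to E15.5 in Ebf2-EGFP- cells (x axis) and in Ebf2-EGFP+ cells (y axis) for each of 4859 coding genes, with the 444 called above 0 in orange and the 166 called below 0 in blue. The vertical distance from the dashed diagonal is the interaction, and *Ndnf* lies farthest above it, with 4.41.

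*Ndnf*, a secreted neuron-derived factor that marks cells of the cortical surface layer (chr6:65671590-65712326, GRCm38), had the largest interaction. It measured 0.251 and 1.36 FPKM at E13.5, then 18 and 76 at E15.5, for Ebf2-EGFP+ cells, against 0.212 and 0.124, then 0.238 and 0.20, in Ebf2-EGFP- cells. Both E15.5 Ebf2-EGFP+ libraries stood far above the other 6, none of which exceeded 1.36 FPKM, although they also differed from each other. The interaction was 4.41 (limma, SE 0.68, adjusted p = 0.00473), where SE is the standard error, and Ebf2-EGFP+ cells moved, by 4.47 (adjusted p = 6.68e-05), while the change in Ebf2-EGFP- cells was 0.06 (adjusted p = 0.921). Left-out libraries gave interactions of 3.40 to 5.42, all called.

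*Lhx5*, a LIM-homeodomain transcription factor of Cajal-Retzius neurons and their source regions (chr5:120431699-120441223), measured 4.06 and 3.44 FPKM at E13.5, then 20.8 and 22.6 at E15.5, for Ebf2-EGFP+ cells, against 0.0748 and 0.0169, then 0.285 and 0.218, in Ebf2-EGFP- cells. The Ebf2-EGFP+ libraries did not overlap between stages and the Ebf2-EGFP- libraries all stayed under 0.3 FPKM. Its interaction was 1.999 (limma, SE 0.23, adjusted p = 0.00105), with a rise of 2.26 (adjusted p = 5.98e-06) in Ebf2-EGFP+ cells and 0.26 (adjusted p = 0.176) in Ebf2-EGFP- cells. With a pseudocount of 0.1 in place of 1, which gives low values more weight, the small rise in Ebf2-EGFP- cells was called too and the interaction was not (1.21, adjusted p = 0.0557).

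*Tle4*, a Groucho-family corepressor that marks layer 6 neurons (chr19:14448150-14598051), measured 16.7 and 19.7 FPKM at E13.5, then 59 and 48.9 at E15.5, for Ebf2-EGFP+ cells, against 10.2 and 9.58, then 9.3 and 7.85, in Ebf2-EGFP- cells. Ebf2-EGFP+ cells moved, with both E15.5 libraries well above both E13.5 libraries, whereas the 4 Ebf2-EGFP- libraries lay between 7.85 and 10.2 FPKM. The interaction was 1.70 (limma, SE 0.22, adjusted p = 0.00161), from a change of 1.51 (adjusted p = 4.40e-05) in Ebf2-EGFP+ cells and -0.19 (adjusted p = 0.294) in Ebf2-EGFP- cells.

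*Rnd2*, an atypical small GTPase that newborn cortical neurons use in migration (chr11:101464999-101471853), went the opposite way. It measured 604 and 492 FPKM at E13.5, then 106 and 57.6 at E15.5, for Ebf2-EGFP+ cells, against 357 and 309, then 185 and 198, in Ebf2-EGFP- cells. It fell in both populations, but from the highest to the lowest of the 4 groups in Ebf2-EGFP+ cells. Its interaction was -1.995 (limma, SE 0.34, adjusted p = 0.00651), with changes of -2.79 (adjusted p = 1.43e-05) in Ebf2-EGFP+ cells and -0.79 (adjusted p = 0.013) in Ebf2-EGFP- cells, and the population difference turned from higher to lower in Ebf2-EGFP+ cells.

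**Figure D3:**
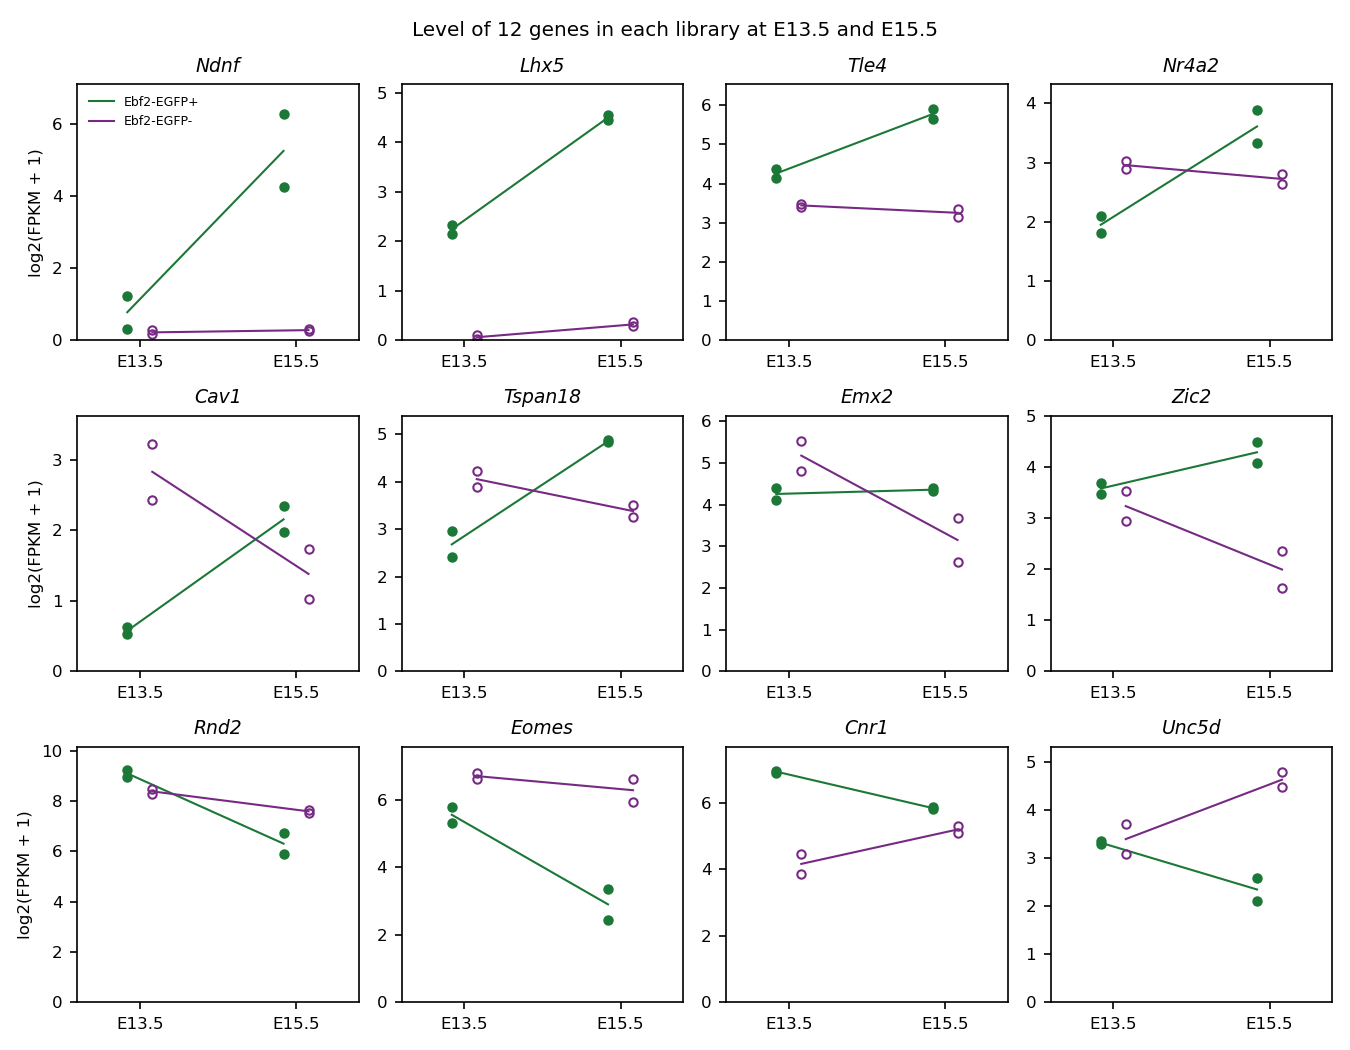
Level of 12 genes as log2(FPKM + 1) (y axis) at E13.5 and E15.5 (x axis), with 1 point for each library and a line through the group means, filled green for Ebf2-EGFP+ and open purple for Ebf2-EGFP- cells. The lines of *Cav1*, *Tspan18*, *Nr4a2*, *Emx2* and *Rnd2* cross, while *Ndnf*, *Lhx5* and *Tle4* have a rise called in Ebf2-EGFP+ cells only.

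Of the 10 largest interactions above 0 with at least 5 FPKM in 1 group, 7 had a change called in Ebf2-EGFP+ cells only. Beside *Ndnf* these were *Gdf5*, a growth factor of the BMP family, *Fkbp9*, a prolyl isomerase of the endoplasmic reticulum, *Fibcd1*, a membrane protein that binds acetylated sugars, *Cxcl12*, the chemokine of the meninges that holds Cajal-Retzius cells near the surface, *Ache*, acetylcholinesterase, and *Cd274*, the immune checkpoint ligand PD-L1. *Gdf5* measured 0.208 and 0.15 FPKM at E13.5, then 5.69 and 12.9 at E15.5, for Ebf2-EGFP+ cells, against 0.377 and 0.202, then 0.131 and 0.0373, in Ebf2-EGFP- cells. The 6 other libraries were all under 0.4 FPKM, so the gene appeared in Ebf2-EGFP+ cells at E15.5, and its interaction was 3.28 (limma, SE 0.35, adjusted p = 0.00104).

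*Fibcd1* measured 0.601 and 1.57 FPKM at E13.5, then 11.4 and 15 at E15.5, for Ebf2-EGFP+ cells, against 0.627 and 0.753, then 0.853 and 0.551, in Ebf2-EGFP- cells. Only the E15.5 Ebf2-EGFP+ pair exceeded 2 FPKM, and the interaction was 2.79 (limma, SE 0.29, adjusted p = 0.00104). *Ache* measured 0.566 and 0.569 FPKM at E13.5, then 7.18 and 15.7 at E15.5, for Ebf2-EGFP+ cells, against 0.0765 and 0.0861, then 0.296 and 0.398, in Ebf2-EGFP- cells, and its interaction was 2.58 (limma, SE 0.35, adjusted p = 0.00195). Its E15.5 Ebf2-EGFP+ libraries differed from each other but did not overlap any other group.

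*Cd274* measured 0.54 and 0.71 FPKM at E13.5, then 4.25 and 11.48 at E15.5, for Ebf2-EGFP+ cells, against 0.276 and 0.299, then 0.19 and 0.146, in Ebf2-EGFP- cells. Its interaction was 2.46 (limma, SE 0.40, adjusted p = 0.00541), again from Ebf2-EGFP+ cells. *Fkbp9* measured 5.66 and 8.13 FPKM at E13.5, then 23.9 and 59.9 at E15.5, for Ebf2-EGFP+ cells, against 13 and 10.01, then 7.87 and 5.05, in Ebf2-EGFP- cells, and its interaction was 3.08 (limma, SE 0.49, adjusted p = 0.00509). Here Ebf2-EGFP- cells had the higher values at E13.5 and the lower at E15.5, but only the rise in Ebf2-EGFP+ cells, 2.32 (adjusted p = 4.54e-04), was called.

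*Cxcl12* rested most on 1 library. It measured 3.78 and 3.38 FPKM at E13.5, then 10.2 and 44.2 at E15.5, for Ebf2-EGFP+ cells, against 14.6 and 13.2, then 12.4 and 7.97, in Ebf2-EGFP- cells. The second E15.5 Ebf2-EGFP+ library stood far above all 7 others, while the first lay below the E13.5 Ebf2-EGFP- pair. The interaction was 2.74 (limma, SE 0.66, adjusted p = 0.0229), and without that library it was 1.73 and still called, but the call was lost without either E13.5 Ebf2-EGFP+ library, replicate 1 of E13.5 Ebf2-EGFP- cells or replicate 2 of E15.5 Ebf2-EGFP- cells (2.45 to 2.80, adjusted p = 0.0528 to 0.0905). Without the E11.5 libraries it was not called either (2.74, adjusted p = 0.0836).

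*Cxcl12* was the only call among the 10 meninges and fibroblast genes in the table, against 9.14% of all coding genes above 0. With the replicate block 3 were called above 0, against 22.9%. In Ebf2-EGFP+ cells 3 of the 10 rose and none fell, where 24.6% of all coding genes rose and 17.3% fell. The median change of the list there was -0.01. Its median interaction was 0.07, against 0.10 for all coding genes. The mean level of the list in Ebf2-EGFP+ libraries was 0.55 and 0.41 on the log2 scale for the earlier stage and 0.63 and 0.94 for the later. The highest value was that of the library also highest in *Cxcl12*. That match is partly built in, because *Cxcl12* is among the genes averaged. Ebf2-EGFP- libraries had mean levels of 1.20 and 1.02, then 0.97 and 0.87. Among the members, the collagen gene *Col1a1* averaged 0.191 and then 1.26 FPKM in Ebf2-EGFP+ cells. The part of such cells in the result was not tested.

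Genes that moved in opposite directions included 3 of the 10 largest. *Cav1*, the coat protein of caveolae, measured 0.545 and 0.44 FPKM at E13.5, then 4.08 and 2.92 at E15.5, for Ebf2-EGFP+ cells, against 8.37 and 4.42, then 2.34 and 1.04, in Ebf2-EGFP- cells. Ebf2-EGFP+ cells were the lowest group at E13.5 and held both of the higher values at E15.5, and the stage changes were 1.58 (adjusted p = 0.00104) and -1.45 (adjusted p = 0.00116). Its interaction was 3.03 (limma, SE 0.39, adjusted p = 0.00161), and the population difference turned from lower to higher.

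*Tspan18*, a tetraspanin of the cell membrane, measured 4.3 and 6.75 FPKM at E13.5, then 28.4 and 27.5 at E15.5, for Ebf2-EGFP+ cells, against 17.8 and 13.7, then 10.4 and 8.57, in Ebf2-EGFP- cells. No group overlapped another, and the interaction was 2.85 (limma, SE 0.28, adjusted p = 0.00104), from a rise of 2.17 (adjusted p = 2.10e-05) in Ebf2-EGFP+ cells and a change of -0.67 (adjusted p = 0.0117) in Ebf2-EGFP- cells. *Lmcd1*, a LIM-domain transcriptional cofactor, measured 1.24 and 1.66 FPKM at E13.5, then 4.24 and 7.46 at E15.5, for Ebf2-EGFP+ cells, against 5.42 and 2.85, then 2.18 and 1.13, in Ebf2-EGFP- cells, and its interaction was 2.38 (limma, SE 0.40, adjusted p = 0.00625). It too was lower in Ebf2-EGFP+ cells at E13.5 and higher at E15.5.

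*Zic2*, a zinc finger transcription factor of the septum and cortical hem, measured 11.9 and 10.2 FPKM at E13.5, then 16 and 21.7 at E15.5, for Ebf2-EGFP+ cells, against 10.5 and 6.75, then 4.16 and 2.09, in Ebf2-EGFP- cells. The populations were close at E13.5 and did not overlap at E15.5. The interaction was 1.95 (limma, SE 0.36, adjusted p = 0.0098), with changes of 0.71 (adjusted p = 0.0446) in Ebf2-EGFP+ and -1.24 (adjusted p = 0.00184) in Ebf2-EGFP- cells, and it was not called with the 8 libraries alone (1.95, adjusted p = 0.0532). Of the 17 genes of the cortical hem, septum and midline list in the table, 15 lay above 0, as did 2750 of all 4859 coding genes. Only *Zic2* and the Wnt receptor gene *Fzd10* were called there, and *Rspo3*, a secreted enhancer of Wnt signalling, was called below 0. Over all coding genes 9.14% were called above 0 and 3.42% below. The list median was 0.34, against 0.10 for all coding genes, and with the replicate block 6 members were called above 0 and 1 below, and 2 to 8 above 0 with 1 library left out, the most without replicate 2 of E13.5 Ebf2-EGFP-.

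In the Cajal-Retzius list, 6 of the 10 genes in the table were called above 0 and none below, against 9.14% and 3.42% of all coding genes, with a median of 1.20. Leaving out single libraries gave 3 to 6 calls, all above 0, and the 8 libraries alone 3. The list was written with earlier results known and its genes were among those the authors selected on these libraries. In Ebf2-EGFP+ cells 9 of the 10 rose, where 24.6% of all coding genes did, with a median change of 1.72. In Ebf2-EGFP- cells 2 rose and 2 fell, against 28.8% and 34.8% of all coding genes. *Ndnf* and *Lhx5* are described above. *Trp73*, the p53 relative made by Cajal-Retzius neurons, measured 12.9 and 12 FPKM at E13.5, then 41.9 and 54.6 at E15.5, for Ebf2-EGFP+ cells, against 0.172 and 0.191, then 0.726 and 0.295, in Ebf2-EGFP- cells, with an interaction of 1.52 (limma, SE 0.27, adjusted p = 0.00724) that a pseudocount of 0.1 lowered (0.91, adjusted p = 0.182).

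*Nhlh2*, a basic helix-loop-helix factor of early neurons, measured 26.8 and 24.8 FPKM at E13.5, then 40.05 and 63.7 at E15.5, for Ebf2-EGFP+ cells, against 6.28 and 6.29, then 5.84 and 2.65, in Ebf2-EGFP- cells, and its interaction was 1.49 (limma, SE 0.40, adjusted p = 0.0338). *Ebf3*, a close relative of *Ebf2*, measured 10.3 and 9.36 FPKM at E13.5, then 13.9 and 20.02 at E15.5, for Ebf2-EGFP+ cells, against 1.51 and 1.4, then 0.956 and 0.539, in Ebf2-EGFP- cells, and its interaction was 1.21 (limma, SE 0.28, adjusted p = 0.0193) from opposite changes of 0.71 (adjusted p = 0.0131) and -0.50 (adjusted p = 0.043). *Cacna2d2*, an auxiliary calcium channel subunit, measured 11.2 and 10.6 FPKM at E13.5, then 31.1 and 51.6 at E15.5, for Ebf2-EGFP+ cells, against 1.09 and 0.998, then 2.22 and 1.98, in Ebf2-EGFP- cells, and its interaction was 1.19 (limma, SE 0.35, adjusted p = 0.0468). In these genes the Ebf2-EGFP+ libraries lay above the Ebf2-EGFP- libraries at both stages, so a gap already present became wider.

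These last calls were the least firm of the list. *Nhlh2* was called in 3 of the 8 fits that each left out 1 library and lost without either E13.5 Ebf2-EGFP+ library, replicate 1 of E13.5 Ebf2-EGFP-, replicate 2 of E15.5 Ebf2-EGFP+ or replicate 2 of E15.5 Ebf2-EGFP- (1.04 to 1.54, adjusted p = 0.0665 to 0.119). *Ebf3* was lost without replicate 1 of E13.5 Ebf2-EGFP- or without replicate 2 of any other group (0.97 to 1.18, adjusted p = 0.0628 to 0.0744). *Cacna2d2* kept its call only without replicate 1 of E15.5 in either population, and the fits that lost it gave interactions of 0.83 to 1.23.

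*Reln*, the reelin gene, rose in both populations. It measured 125 and 187 FPKM at E13.5, then 399 and 925 at E15.5, for Ebf2-EGFP+ cells, against 2.77 and 4.22, then 13.7 and 10.6, in Ebf2-EGFP- cells. Its interaction of 0.43 (limma, SE 0.46, adjusted p = 0.524) was not called, and nor was that of *Calb2*, the gene of the calcium buffer calretinin, at 0.35 (limma, SE 0.30, adjusted p = 0.411). *Ebf2* was not called either, at 0.68 (limma, SE 0.35, adjusted p = 0.20), with a fall called in Ebf2-EGFP- cells only.

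Subplate neurons share the preplate with Cajal-Retzius neurons, and 2 of the 6 subplate genes in the table were called, both above 0, where 9.14% of all coding genes were, with a median of 1.04. *Nr4a2*, an orphan nuclear receptor of subplate neurons, measured 3.26 and 2.51 FPKM at E13.5, then 13.9 and 9.02 at E15.5, for Ebf2-EGFP+ cells, against 7.11 and 6.43, then 5.2 and 6.03, in Ebf2-EGFP- cells. Ebf2-EGFP+ cells moved from the lowest to the highest pair of libraries, for an interaction of 1.89 (limma, SE 0.29, adjusted p = 0.00473). *Ctgf*, a matricellular protein gene of the subplate now named *Ccn2*, measured 0.354 and 0.305 FPKM at E13.5, then 0.325 and 1.03 at E15.5, for Ebf2-EGFP+ cells, against 5.46 and 5.61, then 1.16 and 2.46, in Ebf2-EGFP- cells, and here Ebf2-EGFP- cells fell. Its interaction of 1.56 (limma, SE 0.33, adjusted p = 0.0147) was lost without replicate 1 of E13.5 Ebf2-EGFP- or replicate 2 of either Ebf2-EGFP+ group (1.25 to 1.57, adjusted p = 0.050 to 0.0569). With the replicate block 4 subplate genes were called above 0 and 1 below, against 22.9% and 13.6% of all, and with 1 library left out 1 to 3 above 0.

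In the deep-layer cortical plate list *Tle4* was the 1 gene of 9 called, above 0, where 9.14% of all coding genes were. The list median was -0.21. The replicate block called 2 of the 9 above 0 and 1 below. The transcription factor genes *Bcl11b*, *Fezf2*, *Tbr1* and *Sox5*, which specify subcerebral and corticothalamic neurons, had interactions of -0.21, 0.09, -0.27 and -0.47, none called (limma adjusted p = 0.828, 0.922, 0.514 and 0.34). The stage changes of *Crym*, a thyroid hormone binding protein, were 2.49 (adjusted p = 2.17e-04) in Ebf2-EGFP+ cells and 2.32 (adjusted p = 3.00e-04) in Ebf2-EGFP- cells, and its interaction was 0.17 (limma, SE 0.46, adjusted p = 0.809).

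Calls above 0 also came from falls in Ebf2-EGFP- cells. *Emx2*, a homeodomain factor of the medial cortex and of Cajal-Retzius source regions, measured 20.1 and 16.3 FPKM at E13.5, then 19 and 20.1 at E15.5, for Ebf2-EGFP+ cells, against 45.6 and 27.2, then 11.9 and 5.14, in Ebf2-EGFP- cells. The Ebf2-EGFP+ libraries kept to 16.3 to 20.1 FPKM at both stages while the Ebf2-EGFP- libraries went from above to below them. The interaction was 2.13 (limma, SE 0.43, adjusted p = 0.0128), with a change of -2.02 (adjusted p = 3.91e-04) in Ebf2-EGFP- cells, and it was not called without replicate 1 of E13.5 Ebf2-EGFP- cells (1.77, adjusted p = 0.0598).

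*Hes1*, a Notch target that keeps radial glia undifferentiated, measured 1.13 and 0.478 FPKM at E13.5, then 0.235 and 0.323 at E15.5, for Ebf2-EGFP+ cells, against 40.7 and 21.3, then 5.94 and 3.02, in Ebf2-EGFP- cells. It was near the floor in Ebf2-EGFP+ cells throughout, and the interaction of 2.06 (limma, SE 0.46, adjusted p = 0.0179) came with a change of -2.53 (adjusted p = 2.05e-04) in Ebf2-EGFP- cells, where replicate 1 exceeded replicate 2 at both stages. A pseudocount of 0.1 lowered it (1.605, adjusted p = 0.11), and the call was lost without replicate 1 of E13.5 Ebf2-EGFP- or replicate 2 of any other group (1.61 to 2.01, adjusted p = 0.0514 to 0.0753). Of the 11 radial glia genes, 3 were called above 0 (*Emx2*, *Hes1* and the intermediate filament gene *Nes*) and none below, with a median of 0.54. Over all coding genes the shares were 9.14% and 3.42%. With the replicate block 6 were called above 0 and 1 below, against 22.9% and 13.6% of all coding genes, whereas none was called with the 8 libraries alone or without replicate 1 of E13.5 Ebf2-EGFP-.

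Cell cycle genes are given by phase. All 13 DNA replication genes in the table lay above 0, as did 2750 of all 4859 coding genes, with a median interaction of 1.04. The 13 mitosis genes had a median of 0.08 with none called by limma (1 at an unadjusted p under 0.05). Mitosis genes fell in both populations: 12 of 13 were called down in Ebf2-EGFP+ cells, with a median of -1.70, and 13 of 13 in Ebf2-EGFP- cells, with a median of -1.87. Replication genes fell in 13 of 13 cases in Ebf2-EGFP- cells, with a median of -1.50. In Ebf2-EGFP+ cells 2 of 13 fell, near the share of all coding genes, with a median of -0.46. The difference between the lists was not tested.

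**Figure D4:**
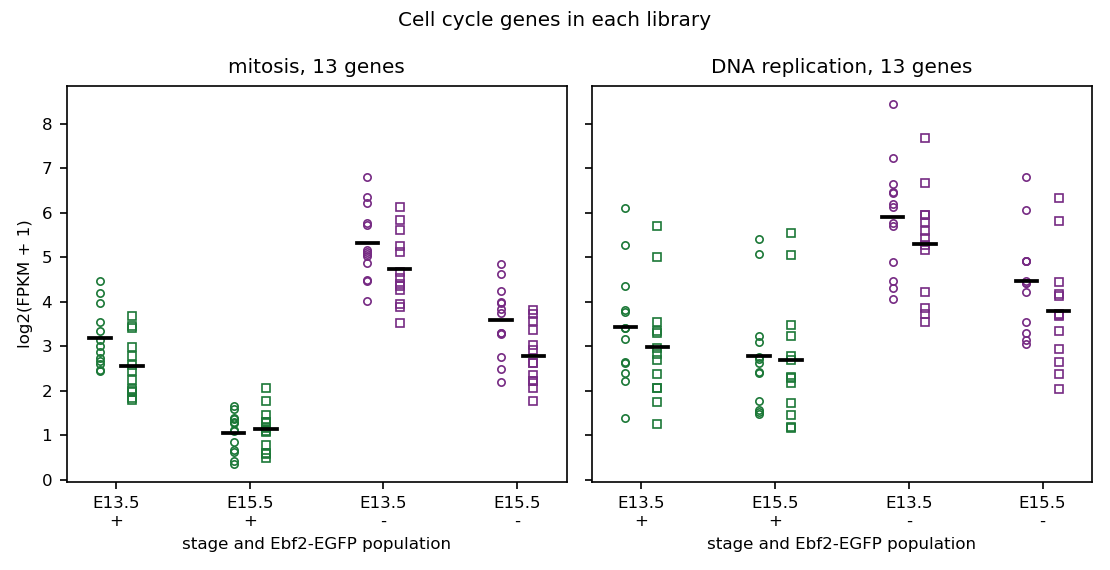
Log2(FPKM + 1) (y axis) of 13 mitosis genes and 13 DNA replication genes in each library of the 4 groups (x axis), with circles for replicate 1, squares for replicate 2 and a bar at the mean of each library. Mitosis genes drop in both populations. In Ebf2-EGFP+ cells the mean of the replication genes drops less, from 3.43 and 2.995 at E13.5 to 2.78 and 2.71 at E15.5.

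Of the 13 replication genes 3 were called, all above 0, where 9.14% of all coding genes were. These were *Mcm4*, *Mcm6* and *Mcm7*, subunits of the helicase that opens replication origins. *Mcm6* measured 12.7 and 8.88 FPKM at E13.5, then 7.55 and 10.2 at E15.5, for Ebf2-EGFP+ cells, against 86.5 and 60.4, then 29.3 and 20.9, in Ebf2-EGFP- cells. Ebf2-EGFP+ cells overlapped between stages and Ebf2-EGFP- cells did not, for an interaction of 1.26 (limma, SE 0.35, adjusted p = 0.0368). *Mcm4* had an interaction of 1.25 (limma, SE 0.32, adjusted p = 0.0285), with a change of -1.49 (adjusted p = 3.92e-04) in Ebf2-EGFP- cells and -0.24 (adjusted p = 0.427) in Ebf2-EGFP+ cells. *Mcm7* had 0.94 (limma, SE 0.26, adjusted p = 0.0386).

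With the replicate block 11 of the 13 replication genes were called, all above 0 (22.9% of all coding genes), and 1 of the 13 mitosis genes. The count for replication genes followed the libraries: 10 and 11 were called without replicate 2 of E13.5 Ebf2-EGFP- and without replicate 1 of E15.5 Ebf2-EGFP-, but none with the 8 libraries alone or without replicate 1 of E13.5 Ebf2-EGFP- or replicate 2 of any other group. The 2 calls of *Mcm4* and *Mcm6* were lost without replicate 1 of E13.5 Ebf2-EGFP- cells or replicate 2 of any other group (0.97 to 1.21, adjusted p = 0.0824 to 0.123 for *Mcm4* and 1.002 to 1.06, adjusted p = 0.118 to 0.158 for *Mcm6*). With a pseudocount of 0.1 the mitosis median was -0.53 and that of the replication genes 0.99, and after median-of-ratios scaling the mitosis median was -0.12.

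Calls below 0, which 3.42% of all coding genes gave, included 1 of 11 neurogenic cascade genes, *Eomes*. This T-box factor of intermediate progenitors measured 54.6 and 38.7 FPKM at E13.5, then 9.24 and 4.46 at E15.5, for Ebf2-EGFP+ cells, against 110.1 and 96, then 97.5 and 60.4, in Ebf2-EGFP- cells. Both stages of Ebf2-EGFP- cells overlapped, while the Ebf2-EGFP+ libraries fell to under 10 FPKM. The interaction was -2.23 (limma, SE 0.43, adjusted p = 0.0107), from a change of -2.65 (adjusted p = 9.78e-05) in Ebf2-EGFP+ cells, and it was called in all 8 fits with 1 library left out. The neurogenic cascade had no other member called among 11, although 8 of the 11 lay below 0, with a median of -0.66, and with the replicate block 5 were called below 0, and 1 to 4 with 1 library left out.

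*Mfap4*, a matrix protein of elastic fibres, measured 58.5 and 40.5 FPKM at E13.5, then 13.8 and 4.93 at E15.5, for Ebf2-EGFP+ cells, against 57.6 and 55.7, then 64.6 and 45.6, in Ebf2-EGFP- cells, with an interaction of -2.35 (limma, SE 0.49, adjusted p = 0.0141). *Plxna4*, a semaphorin receptor of growing axons, measured 42.5 and 38.1 FPKM at E13.5, then 11.7 and 17.8 at E15.5, for Ebf2-EGFP+ cells, against 28.6 and 36.5, then 31.8 and 65.6, in Ebf2-EGFP- cells, with an interaction of -1.90 (limma, SE 0.41, adjusted p = 0.0168). In both the fall in Ebf2-EGFP+ cells was called and the change in Ebf2-EGFP- cells was not, and both calls were lost without replicate 1 of E13.5 Ebf2-EGFP- cells (-2.37, adjusted p = 0.0578 and -1.73, adjusted p = 0.0768).

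*Cxcr7*, the scavenging receptor of the chemokine Cxcl12 now named *Ackr3*, measured 20.6 and 22.2 FPKM at E13.5, then 2.4 and 1.4 at E15.5, for Ebf2-EGFP+ cells, against 15.497 and 17.5, then 9.22 and 8.78, in Ebf2-EGFP- cells. It fell in both populations and most in Ebf2-EGFP+ cells, with changes of -2.97 (adjusted p = 3.90e-06) against -0.80 (adjusted p = 0.00457), for an interaction of -2.17 (limma, SE 0.28, adjusted p = 0.00161). Its ligand gene *Cxcl12* rose in the same sorted population, most in 1 library, as given above. *Epha3*, an ephrin receptor that repels growing axons, measured 60.7 and 53.4 FPKM at E13.5, then 9.65 and 9.88 at E15.5, for Ebf2-EGFP+ cells, against 68.5 and 58.7, then 35.1 and 41.1, in Ebf2-EGFP- cells, with an interaction of -1.70 (limma, SE 0.22, adjusted p = 0.00161). It fell in both populations, and the groups, which overlapped at E13.5, did not at E15.5.

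All 11 neuronal migration genes in the table had interactions below 0, from -2.00 to -0.35, with a median of -0.77. Called were *Rnd2*, *Plxna4* and *Rnd3*, a relative of *Rnd2* with an interaction of -1.58 (limma, SE 0.29, adjusted p = 0.00924), which is 3 of 11 against 3.42% of all genes, and 8 were called with the replicate block, where the share over all genes was 13.6%, and 2 to 5 with 1 library left out. Changes were called on both sides. In Ebf2-EGFP+ cells 4 of the 11 fell and 1 rose, against 17.3% and 24.6% of all coding genes. In Ebf2-EGFP- cells 5 rose and 2 fell, against 28.8% and 34.8%. *Dcx*, the microtubule protein doublecortin of migrating neurons, measured 246 and 259.7 FPKM at E13.5, then 216 and 283 at E15.5, for Ebf2-EGFP+ cells, against 120.0 and 170.4, then 219.8 and 325, in Ebf2-EGFP- cells, with an interaction of -0.93 (limma, SE 0.32, adjusted p = 0.0721) that was not called.

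Axon guidance genes were mixed. Of 21 tabulated genes, 5 were called below 0 and 1 above, against 3.42% and 9.14% of all coding genes, with a median of -0.39. The replicate block gave 9 and 3, against 13.6% and 22.9%, and with the 8 libraries alone, without replicate 1 of E13.5 Ebf2-EGFP- or without replicate 2 of E15.5 Ebf2-EGFP+ 1 was called below 0 and none above. The ephrin system gave 3 of the 5, *Epha3*, *Epha5* and *Efnb2*, and *Dcc*, a netrin receptor, had an interaction of -0.995 (limma, SE 0.23, adjusted p = 0.0188) from a fall in Ebf2-EGFP+ cells. *Robo1*, a Slit receptor, measured 53.1 and 65.5 FPKM at E13.5, then 75 and 79.3 at E15.5, for Ebf2-EGFP+ cells, against 8.32 and 16.5, then 36.5 and 51, in Ebf2-EGFP- cells, so that Ebf2-EGFP- cells approached the Ebf2-EGFP+ level. Its interaction of -1.41 (limma, SE 0.36, adjusted p = 0.0289) was lost without replicate 2 of any group but E13.5 Ebf2-EGFP-, and without replicate 1 of E13.5 Ebf2-EGFP- or of E15.5 Ebf2-EGFP+ (-1.45 to -0.95, adjusted p = 0.0577 to 0.101). Called above 0 was another netrin receptor gene, *Unc5b*, with 1.10 (limma, SE 0.31, adjusted p = 0.0418).

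Rises in Ebf2-EGFP- cells made the other large calls below 0. *Loxl1*, an enzyme that crosslinks elastin, measured 1.38 and 1.79 FPKM at E13.5, then 3.5 and 1.75 at E15.5, for Ebf2-EGFP+ cells, against 1.68 and 1.2, then 13.1 and 10.1, in Ebf2-EGFP- cells, with an interaction of -1.92 (limma, SE 0.33, adjusted p = 0.00662). *Npas1*, a transcription factor known from interneurons, measured 0.593 and 0.597 FPKM at E13.5, then 1.1 and 0.946 at E15.5, for Ebf2-EGFP+ cells, against 0.481 and 1.17, then 9.12 and 6.52, in Ebf2-EGFP- cells, with an interaction of -1.94 (limma, SE 0.27, adjusted p = 0.0023). For both, the 2 E15.5 Ebf2-EGFP- libraries stood above the other 6, which stayed under 4 FPKM.

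Upper-layer genes included further such rises. Of 10 tabulated genes, 4 were called below 0 and none above, against 3.42% and 9.14% of all coding genes, with a median of -0.77, and 6 of the 10 rose in Ebf2-EGFP- cells, where 28.8% of all genes did. *Cux2*, a homeodomain factor of layers 2 to 4, measured 4.1 and 3.05 FPKM at E13.5, then 2.69 and 2.89 at E15.5, for Ebf2-EGFP+ cells, against 11.4 and 15.3, then 31.6 and 39.4, in Ebf2-EGFP- cells. Ebf2-EGFP+ cells kept to 2.69 to 4.10 FPKM and Ebf2-EGFP- cells rose, for an interaction of -1.62 (limma, SE 0.29, adjusted p = 0.00839). *Mdga1*, an immunoglobulin-family adhesion protein, had -1.35 (limma, SE 0.39, adjusted p = 0.0457). The call of *Mdga1* held in 3 of the 8 fits with 1 library left out and was lost without either E13.5 Ebf2-EGFP+ library, E13.5 Ebf2-EGFP- replicate 1, E15.5 Ebf2-EGFP+ replicate 2 or E15.5 Ebf2-EGFP- replicate 2 (-1.58 to -0.92, adjusted p = 0.0544 to 0.192). With the replicate block 6 upper-layer genes were called below 0 and 1 above, and 2 below 0 with the 8 libraries alone, without either E13.5 Ebf2-EGFP+ library, without replicate 1 of E13.5 Ebf2-EGFP- or without replicate 2 of E15.5 Ebf2-EGFP-.

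Opposite changes below 0 were led by *Unc5d*, a netrin receptor family member of upper-layer neurons, and *Cnr1*, the cannabinoid receptor CB1. *Unc5d* measured 8.79 and 9.25 FPKM at E13.5, then 5.04 and 3.31 at E15.5, for Ebf2-EGFP+ cells, against 7.56 and 12, then 21.2 and 26.8, in Ebf2-EGFP- cells. The populations overlapped at E13.5 and were far apart at E15.5, for an interaction of -2.21 (limma, SE 0.32, adjusted p = 0.00331) and changes of -0.97 (adjusted p = 0.00555) and 1.24 (adjusted p = 0.0010). *Cnr1* measured 119 and 124 FPKM at E13.5, then 57 and 55.7 at E15.5, for Ebf2-EGFP+ cells, against 13.51 and 21.1, then 33.2 and 38.4, in Ebf2-EGFP- cells. It was higher in Ebf2-EGFP+ cells at both stages, but the gap narrowed from both sides, with changes of -1.09 (adjusted p = 7.43e-04) and 1.03 (adjusted p = 7.24e-04), for an interaction of -2.13 (limma, SE 0.25, adjusted p = 0.00112).

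*Ly6g6e*, a GPI-anchored Ly6 family protein, measured 3.73 and 3.44 FPKM at E13.5, then 2.2 and 1.97 at E15.5, for Ebf2-EGFP+ cells, against 2.57 and 4.4, then 9.39 and 11.6, in Ebf2-EGFP- cells, with an interaction of -1.96 (limma, SE 0.27, adjusted p = 0.00257). *Cplx2*, a complexin that clamps vesicle fusion, measured 76.1 and 76.3 FPKM at E13.5, then 58.3 and 42.3 at E15.5, for Ebf2-EGFP+ cells, against 36 and 43.7, then 64.3 and 61, in Ebf2-EGFP- cells, with an interaction of -1.25 (limma, SE 0.23, adjusted p = 0.00886). The first parted at E15.5 from overlapping values, and the second lost its excess in Ebf2-EGFP+ cells.

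Of 18 synaptic vesicle and release genes 2 were called, both complexins and both below 0 (3.42% of all coding genes), with a median of -0.46. The replicate block called 7 below 0 (13.6% of all), and 1 to 6 with 1 library left out. In all, 12 of the 18 rose in Ebf2-EGFP- cells, against 28.8% of all genes, while 7 did so in the Ebf2-EGFP+ population, against 24.6%. *Cplx1* rose in both, from 36.4 and 38.8 to 74.2 and 75.7 FPKM in Ebf2-EGFP+ cells and from 5.86 and 9.97 to 29.3 and 36.1 FPKM in Ebf2-EGFP- cells. Its interaction of -0.97 (limma, SE 0.28, adjusted p = 0.0448) held in 2 of 8 fits with 1 library left out (-1.02 to -0.64, adjusted p = 0.0831 to 0.144 in those without either library of either Ebf2-EGFP+ group, replicate 1 of E13.5 Ebf2-EGFP- or replicate 2 of E15.5 Ebf2-EGFP-) and was not called after median-of-ratios scaling (-1.06, adjusted p = 0.0525). Without replicate 1 of E13.5 Ebf2-EGFP- it was -0.64. Of 16 ion channel genes only *Cacna2d2* was called, above 0, where 9.14% of all coding genes were. With the replicate block 1 was called above 0 and 5 below, against 22.9% and 13.6% of all.

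Of 21 glutamate and GABA receptor genes 2 were called above 0 and 1 below, shares near the 9.14% and 3.42% of all coding genes, with a median of -0.12. The replicate block gave 2 and 8, where 22.9% and 13.6% of all genes were called. *Grm3*, a metabotropic glutamate receptor, measured 0.278 and 0.254 FPKM at E13.5, then 5.82 and 9.92 at E15.5, for Ebf2-EGFP+ cells, against 0.216 and 0.167, then 0.774 and 1.48, in Ebf2-EGFP- cells. It rose in both populations and most in Ebf2-EGFP+ cells, with an interaction of 1.95 (limma, SE 0.30, adjusted p = 0.00473). *Grik4*, a kainate receptor subunit, measured 0.46 and 0.43 FPKM at E13.5, then 1.92 and 1.83 at E15.5, for Ebf2-EGFP+ cells, against 0.462 and 0.234, then 0.502 and 0.425, in Ebf2-EGFP- cells, with an interaction of 0.87 (limma, SE 0.19, adjusted p = 0.0168) on low values. Below 0 was the NMDA receptor subunit gene *Grin2d*, with -0.73 (limma, SE 0.14, adjusted p = 0.0108).

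Counts for markers of other cells that a sort could hold stand beside 9.14% of all coding genes called above 0 and 3.42% below. Of 20 ganglionic eminence and interneuron genes, most of them under 1.5 FPKM in Ebf2-EGFP+ cells, 2 were called below 0, among them *Maf*, a transcription factor of interneurons from the medial eminence, which rose in Ebf2-EGFP- cells. *Maf* measured 0.184 and 0.123 FPKM at E13.5, then 0.311 and 0.334 at E15.5, for Ebf2-EGFP+ cells, against 3.14 and 4.05, then 10.3 and 9.43, in Ebf2-EGFP- cells, with an interaction of -1.05 (limma, SE 0.20, adjusted p = 0.0114). *Npy*, neuropeptide Y, was called above 0: it measured 1.95 and 0.799 FPKM at E13.5, then 18.9 and 25.7 at E15.5, for Ebf2-EGFP+ cells, against 13.7 and 8.59, then 24.9 and 24.1, in Ebf2-EGFP- cells, and it rose in both populations, for an interaction of 2.22 (limma, SE 0.47, adjusted p = 0.0154) that was lost without replicate 2 of either Ebf2-EGFP+ group or replicate 1 of E13.5 Ebf2-EGFP- (1.86 to 2.005, adjusted p = 0.0568 to 0.0753). The list median was 0.02, and -0.06 after median-of-ratios scaling, and with the replicate block 3 members were called above 0 and 4 below.

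*Rgs5*, a pericyte gene that restrains G protein signals, measured 0.121 and 0.285 FPKM at E13.5, then 1.62 and 4.13 at E15.5, for Ebf2-EGFP+ cells, against 4.19 and 4.19, then 2.41 and 3.81, in Ebf2-EGFP- cells. It was the 1 called member of 6 endothelial and mural genes, of which the block called 2 above 0, with 1.97 (limma, SE 0.40, adjusted p = 0.0125), which was lost without replicate 1 of E13.5 Ebf2-EGFP- cells (1.97, adjusted p = 0.0545), and the pericyte receptor gene *Pdgfrb* averaged 0.195 and then 0.153 FPKM in Ebf2-EGFP+ cells. The mean level of these 6 genes, *Rgs5* among them, was 0.71 and 0.46 on the log2 scale, then 0.66 and 0.82, in Ebf2-EGFP+ libraries. That was below the 1.26 and 1.44, then 1.13 and 1.28, of Ebf2-EGFP- libraries. *Aif1*, a microglial gene, measured 0.933 and 0.673 FPKM at E13.5, then 2.92 and 2.87 at E15.5, for Ebf2-EGFP+ cells, against 0.111 and 0.188, then 0.626 and 0.773, in Ebf2-EGFP- cells. It had an interaction of 0.55 (limma, SE 0.16, adjusted p = 0.0449) that no fit with 1 library left out kept (0.45 to 0.66, adjusted p = 0.0519 to 0.163), though the block did, and it was the only member of its list in the table. None of 7 erythroid genes and none of 7 immediate early genes was called by limma (0 and 1 at an unadjusted p under 0.05), and with the replicate block 0 and 3 were. The part of such cells in the results was not tested.

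Further calls named above were lost when single libraries were left out. *Nes* was not called without either E13.5 Ebf2-EGFP+ library, E13.5 Ebf2-EGFP- replicate 1, either E15.5 Ebf2-EGFP+ library or E15.5 Ebf2-EGFP- replicate 2 (0.75 to 1.19, adjusted p = 0.0589 to 0.135). *Mcm7* was not called without either E13.5 Ebf2-EGFP+ library, E13.5 Ebf2-EGFP- replicate 1, either E15.5 Ebf2-EGFP+ library or E15.5 Ebf2-EGFP- replicate 2 (0.66 to 1.079, adjusted p = 0.055 to 0.139). *Unc5b* was not called without either E13.5 Ebf2-EGFP+ library, either E13.5 Ebf2-EGFP- library, E15.5 Ebf2-EGFP+ replicate 2 or E15.5 Ebf2-EGFP- replicate 2 (0.76 to 1.23, adjusted p = 0.0588 to 0.137). *Rspo3* was not called without either E13.5 Ebf2-EGFP+ library, E13.5 Ebf2-EGFP- replicate 1, E15.5 Ebf2-EGFP+ replicate 2 or E15.5 Ebf2-EGFP- replicate 1 (-1.41 to -0.98, adjusted p = 0.0528 to 0.112). *Dcc* was not called without E13.5 Ebf2-EGFP+ replicate 2, E13.5 Ebf2-EGFP- replicate 1 or E15.5 Ebf2-EGFP+ replicate 2 (-0.97 to -0.77, adjusted p = 0.0607 to 0.0769). *Efnb2* was not called without E13.5 Ebf2-EGFP+ replicate 1, E13.5 Ebf2-EGFP- replicate 1, E15.5 Ebf2-EGFP+ replicate 2 or E15.5 Ebf2-EGFP- replicate 2 (-0.83 to -0.75, adjusted p = 0.0534 to 0.0644). *Epha5* was not called without either E13.5 Ebf2-EGFP+ library, E13.5 Ebf2-EGFP- replicate 1, E15.5 Ebf2-EGFP+ replicate 2 or E15.5 Ebf2-EGFP- replicate 2 (-0.99 to -0.70, adjusted p = 0.0555 to 0.114). *Maf* was not called without E13.5 Ebf2-EGFP- replicate 1 (-0.90, adjusted p = 0.0501). *Grik4* was not called without E13.5 Ebf2-EGFP+ replicate 2 or E13.5 Ebf2-EGFP- replicate 1 (0.75 to 0.86, adjusted p = 0.0574 to 0.0729). A pseudocount of 0.1 raised the interaction of genes near 0 FPKM in 1 population, to 6.06 for *Gdf5*, 3.84 for *Cd274*, 3.66 for *Rgs5*, 2.34 for *Ctgf* and 2.88 for *Fzd10*, all still called, while *Grik4*, *Maf*, *Aif1*, *Mcm6*, *Cacna2d2*, *Unc5b*, *Mdga1* and *Cplx1* were then not called (1.48, adjusted p = 0.0557, -0.69, adjusted p = 0.209 and 0.06, adjusted p = 0.936 for the first 3). It also took *Grin2d* to -1.41, adjusted p = 0.0471. Without a trend in the moderation *Aif1*, *Cplx1* and *Mdga1* were not called.

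The 8 libraries alone called 27 of the 45 coding genes that the naming rule chose, and the 18 others had adjusted p = 0.0532 to 0.116 (limma). Beside *Cxcl12* and *Zic2* these included *Plxna4*, *Mfap4*, *Emx2*, *Hes1*, *Rgs5*, *Ctgf*, *Nhlh2*, *Mcm4*, *Mcm6*, *Ebf3*, *Cacna2d2*, *Aif1*, *Cplx1*, *Rspo3* and *Robo1*. Of the further genes described, *Dcc*, *Efnb2*, *Epha5*, *Maf*, *Mcm7*, *Mdga1*, *Nes*, *Unc5b* and *Ttc28* were not called there either.

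**Figure D5:**
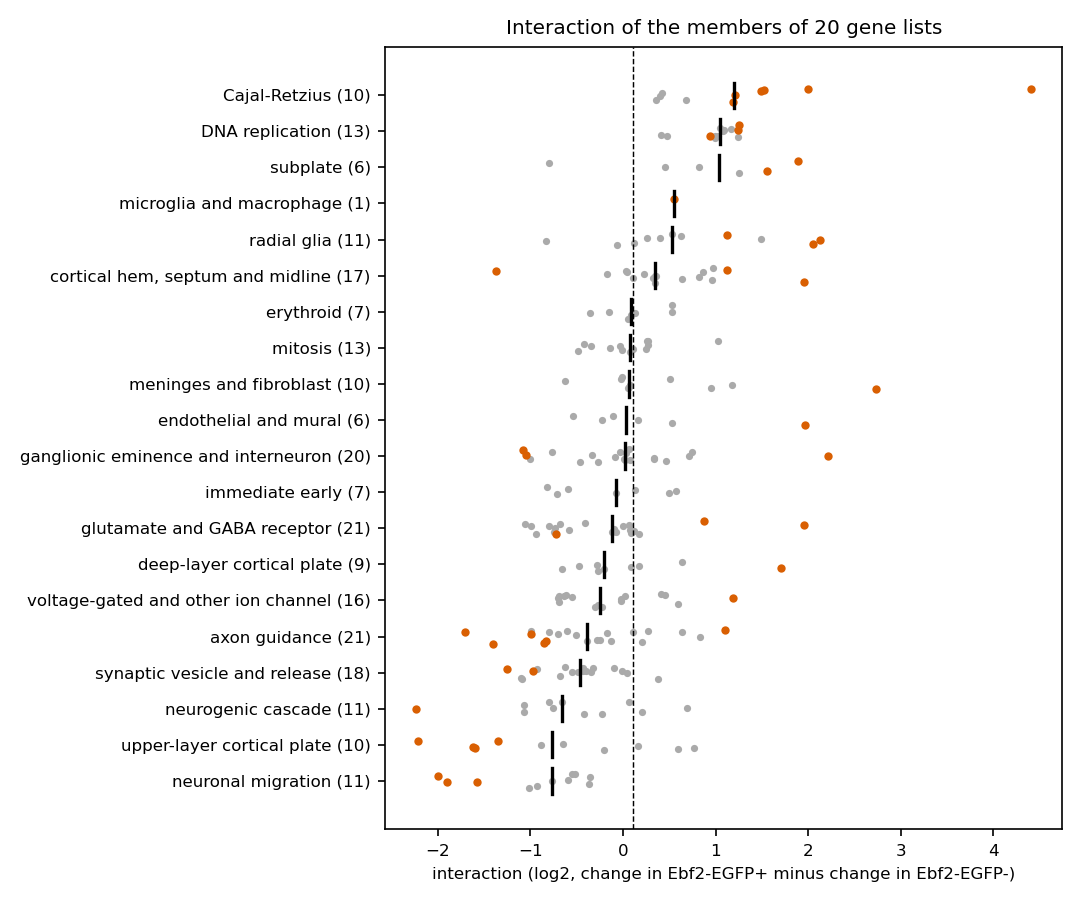
Interaction on the log2 scale (x axis) of each member of 20 gene lists (y axis, with the number of members in the table), in orange where called and grey where not, with a black bar at the list median and a dashed line at the median of all coding genes, 0.10. Lists are ordered by median, from neuronal migration at -0.77 to Cajal-Retzius at 1.20.

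Among lncRNAs 14 of 200 transcripts were called (7.0%), 5 above 0 and 9 below. The stage change was called in Ebf2-EGFP+ cells alone for 8, in Ebf2-EGFP- cells alone for 3, in both with opposite directions for 1 and in both with the same direction for 2. With the replicate block 32 were called (16%), 12 above 0 and 20 below. The balance did not hold throughout: 2 were called above 0 and 1 below with the 8 libraries alone, 4 and 1 without replicate 1 of E13.5 Ebf2-EGFP+, and 4 and 2 without replicate 1 of E15.5 Ebf2-EGFP+. Positions below are those of GENCODE M21 on GRCm38. The library kit named in the labels does not mark strand and the counting is not stated to use it, so where exons overlap on opposite strands the reads of both genes cannot be told apart.

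*E330013P04Rik* (chr19:60144675-60162591, plus strand, 5 exons), a long intergenic transcript, measured 1.29 and 1.21 FPKM at E13.5, then 4.92 and 6.11 at E15.5, for Ebf2-EGFP+ cells, against 3.65 and 1.95, then 1.92 and 0.604, in Ebf2-EGFP- cells. The rise in Ebf2-EGFP+ cells was called (1.53, adjusted p = 0.00334). The change in Ebf2-EGFP- cells was not (-0.77, adjusted p = 0.0667). It was called with the replicate block (-0.77, adjusted p = 0.0442) and after median-of-ratios scaling (-0.87, adjusted p = 0.0441). The interaction was 2.30 (limma, SE 0.41, adjusted p = 0.012), and 1.87 to 2.73 with single libraries left out. It was not called with the 8 libraries alone (2.30, adjusted p = 0.0512). *Gm16277* (chr19:58204139-58236047, plus strand) lies antisense to *Gfra1*, a receptor for GDNF-family ligands, with 416 of its 662 exonic bases shared with *Gfra1* exons, and it measured 0.521 and 0.298 FPKM at E13.5, then 2.49 and 4.45 at E15.5, for Ebf2-EGFP+ cells, against 0.881 and 0.906, then 0.384 and 0.447, in Ebf2-EGFP- cells. Its interaction was 2.05 (limma, SE 0.32, adjusted p = 0.00696), or 3.73, adjusted p = 0.00383 with a pseudocount of 0.1, and *Gfra1*, which measured 1.28 and 0.853 FPKM at E13.5, then 5.52 and 8.27 at E15.5, for Ebf2-EGFP+ cells, against 2.98 and 1.44, then 1.23 and 1.32, in Ebf2-EGFP- cells, had 2.38 (limma, SE 0.38, adjusted p = 0.00509). Both members of the pair were highest in both E15.5 Ebf2-EGFP+ libraries.

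*2610035F20Rik* (chr14:122470377-122475199, minus strand, 5 exons) lies 236 bases from *Zic2* on the opposite strand with no shared exon, and measured 0.511 and 0.77 FPKM at E13.5, then 1.61 and 1.48 at E15.5, for Ebf2-EGFP+ cells, against 0.715 and 0.354, then 0.235 and 0.156, in Ebf2-EGFP- cells. Its interaction of 0.99 (limma, SE 0.25, adjusted p = 0.037) was of the same sign as that of *Zic2*, but was called in only 1 of 8 fits with 1 library left out, that without replicate 2 of E13.5 Ebf2-EGFP- (0.82 to 1.10, adjusted p = 0.0717 to 0.157 in the others). A pseudocount of 0.1 raised it (2.23, adjusted p = 0.0334). The coding gene at the next transcript, *Sybu* on the minus strand, had an interaction of 0.38 (limma, SE 0.27, adjusted p = 0.333), which was not called. *Sybu* rose in both populations, by 2.06 (adjusted p = 2.25e-05) in Ebf2-EGFP+ and 1.69 (adjusted p = 1.40e-04) in Ebf2-EGFP- cells. *2310069G16Rik* (chr15:44787769-44805827, plus strand) shares 122 of 854 exonic bases with *Sybu*, had an interaction of 0.82 (limma, SE 0.20, adjusted p = 0.037), and was called in 1 of 8 such fits, that without replicate 2 of E15.5 Ebf2-EGFP- (0.66 to 0.86, adjusted p = 0.0726 to 0.133 in the others), and not with a pseudocount of 0.1 (0.85, adjusted p = 0.327).

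Below 0, *Gm27197* (chr2:38347357-38348316, minus strand, 2 exons) lies antisense within *Lhx2*, a LIM-homeodomain gene of cortical progenitors, without a shared exon, and measured 2.56 and 1.94 FPKM at E13.5, then 0.356 and 0.70 at E15.5, for Ebf2-EGFP+ cells, against 2.21 and 2.21, then 3.37 and 3.28, in Ebf2-EGFP- cells. Ebf2-EGFP+ cells fell, for an interaction of -1.52 (limma, SE 0.24, adjusted p = 0.00696) that all 8 fits with 1 library left out kept and a pseudocount of 0.1 took to -2.51, adjusted p = 0.0123. *Lhx2* had -0.83 (limma, SE 0.32, adjusted p = 0.104) and was called with the replicate block (-0.83, adjusted p = 0.00221) and after median-of-ratios scaling (-0.93, adjusted p = 0.0481). *RP23-326H18.1* (chr5:110978665-110979217, plus strand, 1 exon) lies in *Ttc28* on the same strand, outside its exons, and measured 45.8 and 50.03 FPKM at E13.5, then 47.5 and 57 at E15.5, for Ebf2-EGFP+ cells, against 19.5 and 35.7, then 101 and 129, in Ebf2-EGFP- cells. Its interaction was -1.95 (limma, SE 0.41, adjusted p = 0.0184) and that of *Ttc28* -1.46 (limma, SE 0.35, adjusted p = 0.0224), both from rises in Ebf2-EGFP- cells, and *Ttc28* was lost without E13.5 Ebf2-EGFP+ replicate 2, E13.5 Ebf2-EGFP- replicate 1, E15.5 Ebf2-EGFP+ replicate 2 or E15.5 Ebf2-EGFP- replicate 2 (-1.45 to -1.03, adjusted p = 0.0654 to 0.0849). The call of the lncRNA was lost in 5 fits, those without either E13.5 Ebf2-EGFP+ library, replicate 1 of E13.5 Ebf2-EGFP-, replicate 1 of E15.5 Ebf2-EGFP+ or replicate 2 of E15.5 Ebf2-EGFP- (-2.01 to -1.53, adjusted p = 0.0508 to 0.0728). Of the 8 lncRNAs that the rule chose, *Gm16277* and *Gm27197* alone were called with the 8 libraries alone.

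Promoters are shown for a few of the genes above, so that the sequence upstream of genes that moved in Ebf2-EGFP+ cells (*Tle4*, *Trp73*, *Nhlh2*) and of genes that moved in opposite directions (*Lmcd1*, *Cplx2*) can be read beside their values. RefSeq promoters on GRCm38.p6 were matched for 28 of the 45 named coding genes and for 3558 of the 4859 in the table. The start sites are those of RefSeq and differ from the gene starts of GENCODE M21 for 4 of the 5: the window of *Trp73* lies inside the GENCODE gene, that of *Nhlh2* reaches into it, that of *Tle4* ends short of it, and that of *Cplx2* lies far upstream of the GENCODE gene, which begins at base 54371349. The 250 bases upstream of the outermost RefSeq start site were searched on both strands for a first E-box of basic helix-loop-helix factors, CAGCTG, for a second box of the same class written as CATCTG, which on the other strand is read as CAGATG, for the core bound by homeodomain factors, TAATTA, and the palindromic motif of EBF factors. Each motif was counted separately, and capitals mark matches.
Tle4 (chr19:14598184-14598433, minus strand): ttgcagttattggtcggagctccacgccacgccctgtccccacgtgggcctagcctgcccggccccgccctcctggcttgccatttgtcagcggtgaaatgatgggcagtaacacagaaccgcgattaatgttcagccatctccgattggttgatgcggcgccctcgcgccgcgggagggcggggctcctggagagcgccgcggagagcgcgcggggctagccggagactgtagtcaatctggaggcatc
Trp73 (chr4:154139876-154140125, minus strand): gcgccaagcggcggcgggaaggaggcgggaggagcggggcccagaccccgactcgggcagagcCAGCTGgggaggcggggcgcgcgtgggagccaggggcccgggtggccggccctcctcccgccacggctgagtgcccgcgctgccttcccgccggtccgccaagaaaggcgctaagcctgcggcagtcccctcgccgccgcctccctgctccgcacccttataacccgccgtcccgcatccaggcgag
Nhlh2 (chr3:102009895-102010144, plus strand): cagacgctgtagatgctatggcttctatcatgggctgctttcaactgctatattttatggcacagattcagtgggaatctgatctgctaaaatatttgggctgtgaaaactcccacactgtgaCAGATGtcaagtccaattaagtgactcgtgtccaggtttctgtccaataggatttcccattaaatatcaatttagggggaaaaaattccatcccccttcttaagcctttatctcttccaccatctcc
Lmcd1 (chr6:112273508-112273757, plus strand): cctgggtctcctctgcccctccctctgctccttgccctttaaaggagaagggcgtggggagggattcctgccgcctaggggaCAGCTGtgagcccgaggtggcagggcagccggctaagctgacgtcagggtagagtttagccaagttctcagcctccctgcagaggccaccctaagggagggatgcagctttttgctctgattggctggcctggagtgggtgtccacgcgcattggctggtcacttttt
Cplx2 (chr13:54302306-54302555, plus strand): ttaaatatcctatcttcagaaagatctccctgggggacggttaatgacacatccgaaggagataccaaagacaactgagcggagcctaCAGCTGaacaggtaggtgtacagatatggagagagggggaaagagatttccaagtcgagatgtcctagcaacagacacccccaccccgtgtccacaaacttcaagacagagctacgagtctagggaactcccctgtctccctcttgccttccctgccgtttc

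The match in *Trp73* begins at base -187, counted from the start site, that in *Lmcd1* at -168 and that in *Cplx2* at -162, all of them CAGCTG, and that in *Nhlh2*, read as CAGATG, at -127. *Tle4* held none of the 4 motifs in this window. Only 5 of the 28 named genes held at least 1, so genes with a match are over-represented among the promoters shown. CAGCTG was in 13.3% of the 3558 promoters of the table, in 14.6% of the 323 of genes called above 0 and in 20.3% of the 118 of genes called below 0. CATCTG was in 9.81%, 10.2% and 11.9%, TAATTA in 1.91%, 1.86% and 1.69%, and the EBF motif in 1.04%, 1.55% and 0.85%. These shares are descriptions, were not tested, and 27025 promoters of the reference held the 4 motifs in 12.7%, 14.5%, 4.91% and 0.77%.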

How the data were processed

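Poly(A) RNA of sorted cortical cells was sequenced in 12 libraries, 2 biological replicates for each of 3 stages and 2 populations, each from pooled embryos. The authors aligned the reads with TopHat (TopHat2 2.0.8b) to mm10 and deposited FPKM per library from Cufflinks 2.2.0, in 1 table of coding genes and 1 of GENCODE M6 lncRNA transcripts. The depth of each library is unknown because no counts were used here. Further columns hold the authors' group means, fold changes, p-values and q-values and were not used.

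Each table was fitted with limma 3.58.1 in R 4.3.3 on log2(FPKM + 1), with 12 libraries as 6 groups, moderation with a trend, two-sided tests and Benjamini-Hochberg adjustment within table and contrast. A call is an adjusted p under 0.05, with no filter on low values. The study named Cuffdiff, which needs alignments. The procedure was tested on simulated data with levels raised above the floor and independent noise. That test does not cover low FPKM or libraries that deviate together.

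The members and gene lists were chosen with earlier results of these data known. Genes were named by rule: *Ndnf*, *Tle4*, *Rnd2* and *Lhx5*; the 10 largest calls in each direction with a group mean of at least 5 FPKM and 1 sign over all 16 choices of 1 library per group; 4 lncRNAs in each direction with at least 1 FPKM; the 2 largest calls of each list; and all calls of the Cajal-Retzius and deep-layer lists. Some features that the rule names are not reported here. Neighbours of lncRNAs, other list members and the printed promoters were chosen after their values were seen. Same-numbered libraries of a stage deviated together from their group means (r = 0.431 to 0.534 over the 3 stages across coding genes, 0.265 to 0.435 across lncRNAs), so numbers were taken to pair libraries, and a fit with a replicate block was made. Alternatives were a pseudocount of 0.1, median-of-ratios scaling, a mean of at least 1 FPKM, moderation without a trend, 8 libraries only, the block, each library left out, an adjusted p under 0.01 and an absolute log2 change of at least 1.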

Additional observations from a re-analysis of the deposited data

Results flagged for a closer look

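The stage change differed between the populations in 610 coding genes and 14 lncRNAs by the limma interaction test. In 9 of the named genes both populations changed, each past the threshold, and in opposite directions. Ebf2-EGFP+ cells rose and Ebf2-EGFP- cells fell in *Cav1* (interaction 3.03), *Tspan18* (2.85), *Lmcd1* (2.38), *Zic2* (1.95) and *Ebf3* (1.21). The reverse held for *Unc5d* (-2.21), *Cnr1* (-2.13), *Ly6g6e* (-1.96) and *Cplx2* (-1.25).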

How the results depend on the processing

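No gene that the naming rule chose changed direction under any alternative that was run, but the balance of some counts did. After median-of-ratios scaling coding genes higher and lower in Ebf2-EGFP+ cells went from 1559 and 2114 to 1900 and 1752 at E13.5 and from 1254 and 1534 to 1597 and 1323 at E15.5, with the median of all genes moving from -0.19 to -0.00039 and from -0.11 to 0.023 on the log2 scale. Rises and falls in Ebf2-EGFP- cells went from 1398 and 1691 to 1558 and 1538, and for lncRNAs from 36 and 24 to 21 and 28, while lncRNAs in Ebf2-EGFP+ cells went from 37 and 19 to 21 and 21. This scaling draws median changes toward 0 by design, so the new balances cannot decide which direction prevailed. The lncRNA interactions, 5 above 0 and 9 below, became 2 and 1 with 8 libraries, 4 and 1 without E13.5 Ebf2-EGFP+ replicate 1 and 4 and 2 without E15.5 Ebf2-EGFP+ replicate 1. The 610 coding genes became 138 with the 8 libraries of both stages only, 1775 with the replicate block, 98 at an adjusted p under 0.01 and 397 with an absolute log2 change of at least 1, and 125 to 1135 with 1 library left out. The calls in Ebf2-EGFP+ cells (2035) became 1254 at 0.01 and 675 with the log2 minimum, and 1247 to 2131 with 1 library left out, the lowest without replicate 1 of E13.5. Those in Ebf2-EGFP- cells (3089) became 1016 with the log2 minimum, and 1962 to 3129 with 1 library left out, the lowest without replicate 1 of E13.5. Population differences at E13.5 (3673) and E15.5 (2788) became 1815 and 1190 with the log2 minimum. The share of the 610 moved by Ebf2-EGFP+ cells only, 34.1%, became 20.6% with the replicate block and 21.8% to 54.2% with 1 library left out. That of Ebf2-EGFP- cells only, 43.3%, became 24.6% with 8 libraries, 23.5% at 0.01 and 18.4% to 56.1% with 1 library left out, so which population was the more frequent mover depended on the libraries used. The 14 lncRNAs became 7 with a pseudocount of 0.1, 3 with 8 libraries, 32 with the replicate block, 2 at 0.01 and 5 to 14 with 1 library left out. The 56 lncRNAs changed in Ebf2-EGFP+ cells became 86 with the replicate block, 27 at 0.01, 23 with the log2 minimum and 24 to 56 with 1 library left out, and the 60 in Ebf2-EGFP- cells became 21, 17 and 18 to 57 for the last 3. The causes were not tested. Fits with a library left out leave 1 group with 1 sample, which is assumed to vary like the others.

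The replicate block ended no call of a named gene, and 62.8% of its calls lay above 0 against 72.8% of the 610. With 2 pools a group, unknown depth and tables limited to features selected on these libraries, calls near the threshold are the least firm, and of the 45 named coding genes 26 stayed called without replicate 1 of E13.5 Ebf2-EGFP- and 27 with 8 libraries only, as did 4 and 2 of the 8 lncRNAs.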
